A study of Mus musculus with 9 samples.

Results

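The enzymes that make cholesterol and those that make and modify fatty acids were followed as separate arms across 3 cultures of mouse mammary cells, together with the genes of the pathway that controls them. The list holds 37 genes, and a gene was taken by the probe set whose annotation gave its symbol alone and whose mean over all arrays was highest. Of these, 36 were measured among the 12393 genes that the array annotation names singly, namely 17 sterol enzymes, 5 regulators and transporters and 14 genes of the fatty acid arm. Insig1 had no probe set under its own symbol, so its expression is not analysed here.

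Total RNA was hybridized to 9 MOE430A Gene Chips, 3 per culture and 1 array per preparation. Tumorspheres (TMS) are non-adherent spheres grown in stem cell medium from independent mammary tumors of MMTV-Neu [N2O2] mice, which carry a Neu transgene behind the MMTV promoter, a promoter active chiefly in mammary epithelium. The labels give no strain or age for the tumor-bearing animals, and the study names FVB/N mice as syngeneic hosts for the tumor cells. Mammospheres (MMS) were grown in the same medium from the bulk mammary gland cells of virgin female FVB/N mice of 6 to 8 weeks, and both kinds of sphere were harvested at passages 3 to 5. For the mammospheres induced to differentiate (diffMMS), FVB/N mammosphere cells were dispersed, plated on collagen and kept for 7 days in medium with serum. TMS and MMS therefore differ in tumor and transgene together, and diffMMS and MMS differ in attachment, medium and time together. TMS are arrays 1099A, 1100A and 1101A, MMS are 858A, 859A and 860A, and diffMMS are 861A, 862A and 863A. No source used here says whether cultures of 1 group shared animals other than that the tumors were independent, and the p values measure the spread between these preparations.

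Cholesterol is built from acetyl-CoA through mevalonate, isoprenoid units, squalene and lanosterol, while fatty acids are built from the same acetyl-CoA through malonyl-CoA and palmitate, and are then elongated and desaturated. Both arms are driven by the SREBP transcription factors, of which that encoded by Srebf2 acts chiefly on sterol genes and those encoded by Srebf1 chiefly on fatty acid genes. SREBPs are carried by Scap out of the endoplasmic reticulum when sterols are scarce, and are held back there by the Insig proteins when sterols are plentiful. In the mammary gland both arms supply membrane lipid for growing epithelium and milk fat in lactation.

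SREBPs bind sterol regulatory elements, often beside a CCAAT box bound by NF-Y, and the stretches before the start of several members are shown for that reason. The first 4 belong to the sterol enzymes with the largest differences described below, Mvk is a sterol enzyme with no called difference, and Fasn belongs to the fatty acid arm. Each stretch holds the 140 bases before the start of a RefSeq transcript on GRCm38.p6, read 5′ to 3′ on the gene's own strand, with the letters TCACNCCAC and CCAAT, on either strand, in capitals. They were cut from chr13:119690211-119690350 (plus strand) for Hmgcs1, chr13:8885466-8885605 (plus) for Idi1, chr5:4104698-4104837 (minus) for Cyp51, chr8:64733579-64733718 (minus) for Msmo1, chr5:114444129-114444268 (plus) for Mvk and chr11:120824548-120824687 (minus) for Fasn. The RefSeq genes of Fasn and Mvk begin farther upstream than the transcript start used, so that the stretch of Fasn lies inside the gene and that of Mvk ends inside it.
Hmgcs1: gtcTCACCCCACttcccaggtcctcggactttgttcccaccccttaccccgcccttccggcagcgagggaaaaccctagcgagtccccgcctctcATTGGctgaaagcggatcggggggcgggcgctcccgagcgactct
Idi1: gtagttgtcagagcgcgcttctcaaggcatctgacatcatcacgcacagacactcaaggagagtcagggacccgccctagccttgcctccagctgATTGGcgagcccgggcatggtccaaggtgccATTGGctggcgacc
Cyp51: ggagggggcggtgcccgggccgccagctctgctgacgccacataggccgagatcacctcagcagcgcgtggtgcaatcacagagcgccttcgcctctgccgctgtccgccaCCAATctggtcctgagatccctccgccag
Msmo1: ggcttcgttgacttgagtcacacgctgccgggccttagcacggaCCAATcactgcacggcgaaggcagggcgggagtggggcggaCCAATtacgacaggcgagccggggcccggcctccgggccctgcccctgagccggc
Mvk: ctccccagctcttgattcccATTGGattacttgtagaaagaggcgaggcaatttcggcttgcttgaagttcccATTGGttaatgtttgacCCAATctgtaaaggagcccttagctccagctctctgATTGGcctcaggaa
Fasn: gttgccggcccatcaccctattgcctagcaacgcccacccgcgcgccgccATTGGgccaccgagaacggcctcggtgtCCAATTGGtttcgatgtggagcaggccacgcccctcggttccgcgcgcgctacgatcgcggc

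A sequence entry was at hand for 30 of the listed genes, and the 250 bases before each start were searched. CCAAT or its reverse complement stood in all 14 sterol enzyme genes with an entry, in 7 of 11 fatty acid genes and in 4 of 5 regulator genes, beside 37.5% of all 27025 genes with an entry. These 5 regulator genes include Insig1, which was not measured, and leave out Stard4, which had no entry. The box therefore stood before sterol enzyme genes that were called in the comparisons below and before those that were not. The element TCACNCCAC stood before 1 of the 14 sterol enzyme genes, Hmgcs1, where it begins 137 bases before the start, and in 1.22% of all genes. The E-box CACGTG stood in 3 of the 14 and in 6.86% of all genes. These are matches of letters within a short window, and no binding was measured.

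Values below are log2 intensities, and differences are log2 fold changes on the scale log2(intensity + 8.67) with limma's moderated standard error (SE, n = 3 per group). Summed intensities are sums of the deposited linear values, without the normalization used for the log2 values. A difference was called at an adjusted p under 0.05 in a limma fit over all 22626 probe sets. Median intensities of the arrays were 84 to 88.6, and Spearman correlations within a group were at least 0.985. Member genes varied more between the TMS arrays (median SD 0.157) than between MMS (0.0804) or diffMMS arrays (0.0740). The TMS array codes are numbered apart from the consecutive codes of MMS and diffMMS, and no label names a date or batch. A difference that goes with this numbering and a difference of tumor origin cannot be told apart. In bulk RNA, fewer cells of a type and less RNA per cell cannot be told apart.

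The labelled cultures were set against markers of the cells they could hold. Of 10 luminal epithelial markers, 7 lay above the median of all probe sets (6.57) in TMS and 3 in each of MMS and diffMMS. Those 3 were Krt8 (7.30 in MMS and 7.26 in diffMMS), Cldn3 (8.07 and 8.64) and Elf3 (7.36 and 7.71). Epcam (6.31 and 6.07) and Krt18 (5.93 and 5.49) lay below the median in these cultures. All 8 fibroblast markers lay above that median in every culture. Their summed intensities were 27074 to 31018 in TMS, 32680 to 33378 in MMS and 37037 to 38974 in diffMMS. Single markers went both ways. In diffMMS 4 were higher than in MMS, and Lum (-1.84) and Dcn (-0.52) were lower. In TMS Thy1 was higher than in MMS (1.04) and 2 were lower. Over all probe sets 16.1% were higher and 17.0% lower in diffMMS, and 6.50% and 7.78% in TMS. Luminal markers summed to 4897 to 8419 in TMS, 857 to 932 in MMS and 916 to 1111 in diffMMS, and 8 of 10 were higher in TMS than in MMS, where 6.50% of all probe sets were higher, Krt18 most, with a log2 fold change of 4.27. Macrophage markers summed to 2052 to 3615, 811 to 917 and 996 to 1598 in the same order, and 7 of 10 were higher in TMS than in MMS, beside the same 6.50%, Lyz1 by 2.73. In diffMMS 6 of these 10 were higher than in MMS and 1, Cd68 (-0.51), was lower, beside 16.1% and 17.0% of all probe sets. Basal markers summed to 834 to 914, 810 to 878 and 2601 to 3994. Of 8, 5 were higher in diffMMS than in MMS, where 16.1% of all probe sets were. Acta2, a smooth muscle actin, rose most, by 2.59, and Mylk by 1.98. The keratins Krt5 (0.19), Krt14 (-0.01) and Krt17 (0.04) were not called in that comparison. Adipocyte markers, which bear on lipid genes, summed to 603 to 627, 651 to 668 and 759 to 787. Of 7, 3 were higher in diffMMS than in MMS and none lower, where 16.1% of all probe sets were higher. These were Retn (0.40), Cebpa (0.39) and Cidec (0.18). In TMS 1 was lower than in MMS and none higher. Adipoq, which defines fat cells, was low in all cultures at 4.68, 4.74 and 4.75. All 10 proliferation genes were lower in TMS than in MMS and lower still in diffMMS, with summed intensities of 2254 to 2412, 3390 to 3546 and 1151 to 1194, where 7.78% of all probe sets were lower in TMS and 17.0% in diffMMS than in MMS. The part of these cell types and of growth in the differences described next was not tested.

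The sterol enzymes called against MMS were, but for Sc5d, at their highest in MMS. Against MMS, 6 of 17 were lower in TMS and none was higher, where 7.78% of all probe sets were lower and 6.50% higher. In diffMMS 7 of 17 were lower than in MMS and 1 was higher, where the shares among all probe sets were 17.0% and 16.1%. The median log2 fold change of the 17 was -0.17 in TMS and -0.14 in diffMMS, beside 0.00 and 0.05 over all 12393 genes. In TMS all 17 values by the probe sets taken lay below 0, where 6285 of the 12393 genes lay above it. By array, the median difference of the 17 from the MMS mean was -0.11 in 1099A, -0.09 in 1100A and -0.41 in 1101A. The TMS arrays thus differed in its size, with 1101A lowest. Of the 17 group values 11 were not called, and on the values as deposited Pmvk had 0.01. Tm7sf2 ran up to 0.08 when the processing was varied or an array was left out. Dimmer probe sets gave 0.11 and -0.10 for Lss and 0.02 for Hsd17b7. Groups did not overlap for 7 of the 17 in TMS against MMS and for 10 in diffMMS against MMS, where 33.3% and 51.6% of all probe sets did not. Over all 36 measured genes, 15 were called in either direction in TMS and 19 in diffMMS, beside 14.3% and 33.1% of all probe sets. The comparisons share their MMS arrays, so the values stand side by side and do not count as independent of each other. Summed intensities of the 17 enzymes, in which bright probe sets weigh most, were 4326 to 5061 in TMS, 6610 to 7301 in MMS and 4190 to 4368 in diffMMS, so that the MMS arrays lay above those of both other cultures.

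**Figure D1:**
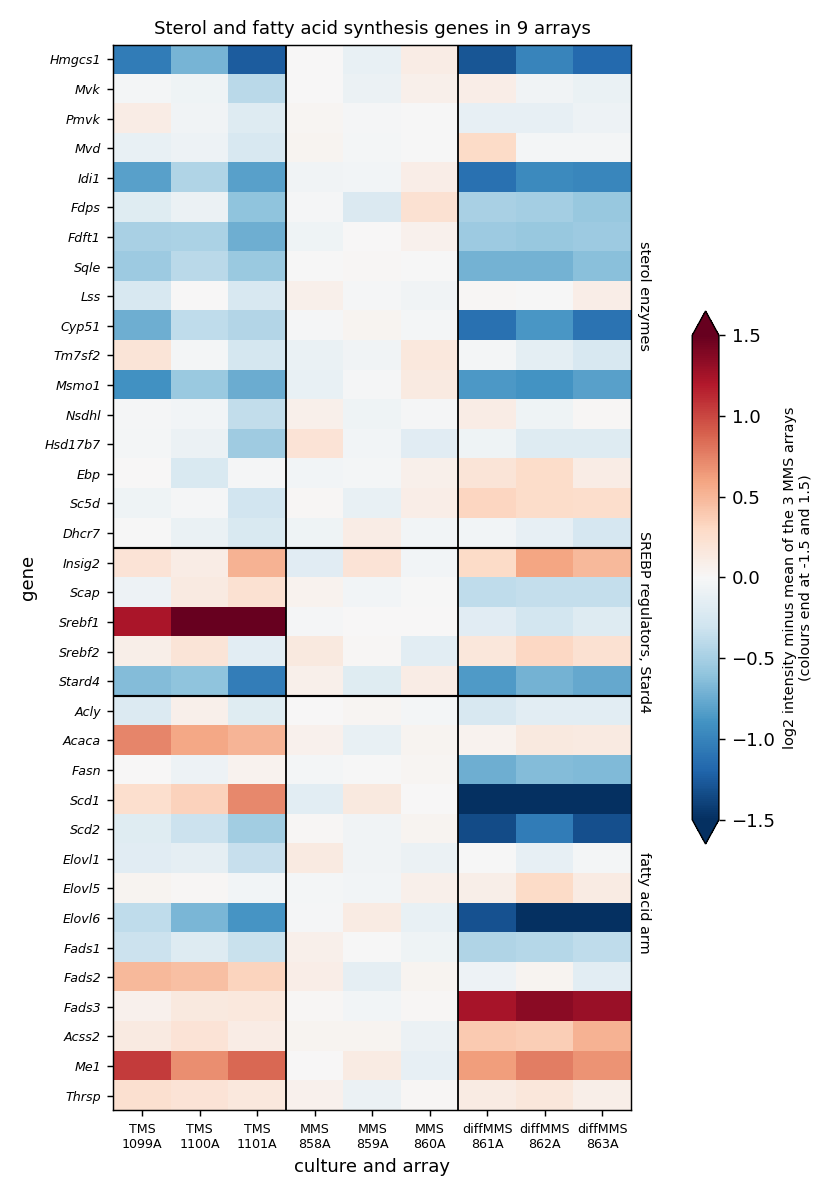
Log2 intensity of the 36 measured genes (rows) in each of the 9 arrays (columns), drawn as the difference from the gene's mean over the 3 MMS arrays, with blue below and red above and colours ending at -1.5 and 1.5. Hmgcs1, Idi1, Fdft1, Sqle, Cyp51 and Msmo1 are blue in TMS and diffMMS, Srebf1 is red in TMS, and Scd1, Scd2 and Elovl6 are blue in diffMMS.

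The sterol arm begins with Hmgcs1, the synthase that forms HMG-CoA and feeds the mevalonate route, and whose promoter holds the only TCACNCCAC among the sterol enzymes searched. Hmgcs1 had log2 intensities of 9.23, 9.58 and 9.03 in TMS, 10.28, 10.16 and 10.38 in MMS and 8.99, 9.28 and 9.11 in diffMMS. TMS and diffMMS overlapped and both lay below every MMS array. The log2 fold change against MMS was -1.0 in TMS (SE 0.128, adjusted p = 4.2e-04 from limma) and -1.15 in diffMMS (adjusted p = 3.6e-05), a 1.99-fold and a 2.22-fold lower level. Its 3 further probe sets gave -1.03 to -1.26 in TMS and -1.06 to -1.36 in diffMMS, and all were called.

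Further along the mevalonate route stands Idi1, the isomerase that converts isopentenyl diphosphate to dimethylallyl diphosphate. Idi1 had log2 intensities of 7.40, 7.76 and 7.40 in TMS, 8.16, 8.17 and 8.31 in MMS and 7.09, 7.26 and 7.23 in diffMMS. No groups overlapped, with MMS highest and diffMMS lowest. Against MMS the log2 fold change was -0.69 in TMS (SE 0.103, adjusted p = 0.00107 from limma) and -1.02 in diffMMS (adjusted p = 1.6e-05), and its dimmer probe set gave -1.54 and -1.72. Mvk, Pmvk and Mvd, the kinases and the decarboxylase between these steps, were not called in any comparison by the probe sets taken, with log2 fold changes against MMS of -0.17 to -0.05 in TMS and -0.11 to 0.08 in diffMMS. The other probe set of Mvd gave -0.37 in TMS (adjusted p = 0.00528 from limma). Fdps, which makes farnesyl diphosphate, had -0.29 in TMS (adjusted p = 0.195 from limma) and was lower in diffMMS by 0.52 on the log2 scale (adjusted p = 0.0127). That call was lost without MMS array 860A (-0.40, adjusted p = 0.0634), and its other, dim probe set gave 0.06 (adjusted p = 0.332).

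Squalene is formed by Fdft1 and oxidized by Sqle, which is a rate-setting step of the sterol arm. Sqle had log2 intensities of 8.66, 8.80 and 8.64 in TMS, 9.19, 9.22 and 9.19 in MMS and 8.49, 8.49 and 8.57 in diffMMS, and no groups overlapped. Its log2 fold change against MMS was -0.50 in TMS (SE 0.0706, adjusted p = 7.9e-04 from limma) and -0.68 in diffMMS (adjusted p = 1.9e-05). Lss, which closes squalene epoxide to lanosterol, had -0.16 and 0.04 and was not called, while another of its 3 probe sets gave 0.24 in diffMMS (adjusted p = 0.0165).

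Fdft1 was measured by 4 probe sets that split in the comparison of diffMMS with MMS, with 2 called lower and 2 called higher. The brightest, taken by the rule, had log2 intensities of 7.78, 7.79 and 7.54 in TMS, 8.20, 8.27 and 8.33 in MMS and 7.72, 7.70 and 7.72 in diffMMS. By it Fdft1 was lower by 0.56 on the log2 scale in TMS (adjusted p = 9.7e-04 from limma) and lower by 0.55 in diffMMS (adjusted p = 3.6e-04), and another probe set gave -0.48 and -0.64. The remaining 2 rose in diffMMS, by 0.51 (adjusted p = 4.0e-04 from limma) and 0.41 (adjusted p = 0.0180), and had -0.05 and -0.07 in TMS. The direction for Fdft1 in diffMMS therefore depends on the probe set, and which transcript each detects was not tested.

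**Figure D2:**
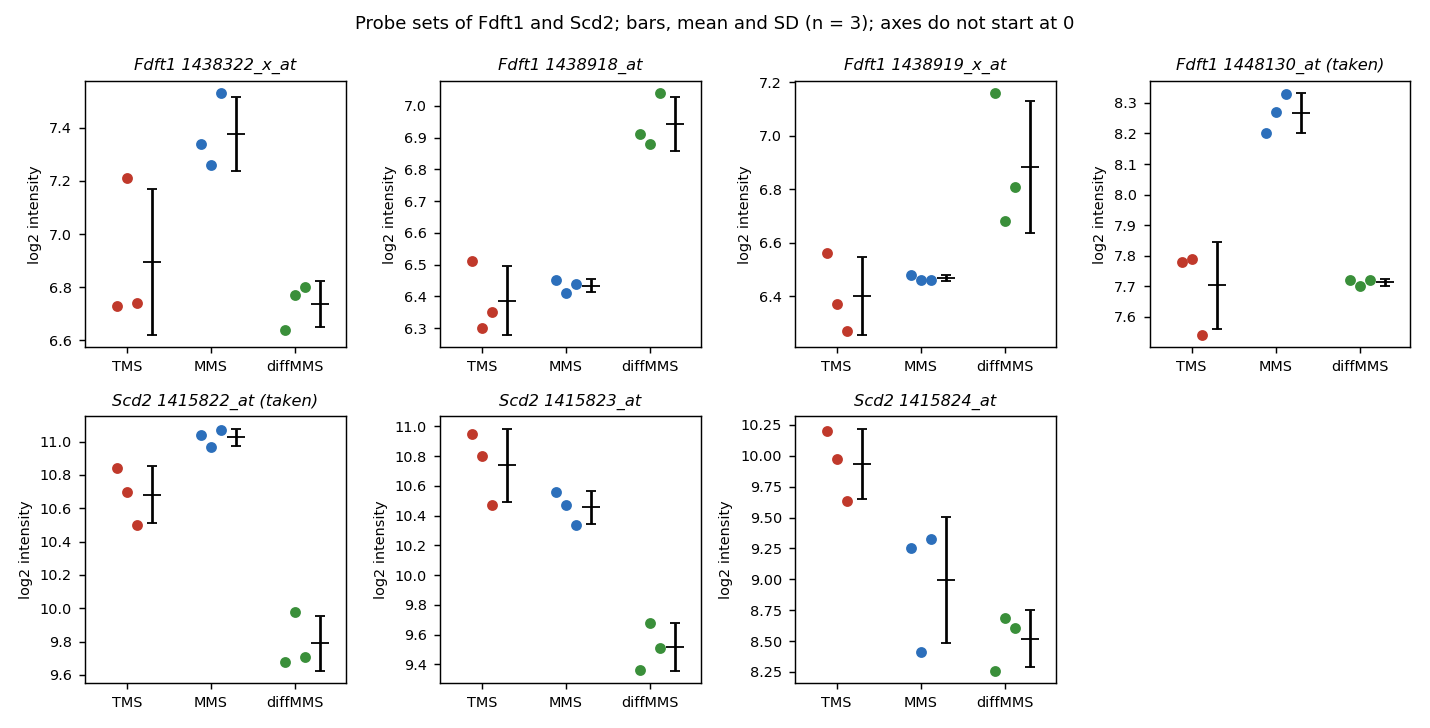
Log2 intensity by culture for the 4 probe sets of Fdft1 and the 3 of Scd2, with points for arrays, a dash at the mean and bars of 1 SD (n = 3); each panel has its own axis, which does not start at 0. The taken Fdft1 probe set is highest in MMS while 2 others are highest in diffMMS, and the 3 probe sets of Scd2 place MMS above, beside and below TMS.

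From lanosterol to cholesterol, Cyp51 removes a methyl group at carbon 14 and Msmo1 oxidizes methyl groups at carbon 4. Cyp51 had log2 intensities of 7.65, 8.0 and 7.94 in TMS, 8.37, 8.43 and 8.35 in MMS and 7.26, 7.51 and 7.28 in diffMMS. By this probe set the groups did not overlap, and TMS lay between the other cultures. The log2 fold change against MMS was -0.52 in TMS (SE 0.101, adjusted p = 0.00517 from limma) and -1.03 in diffMMS (adjusted p = 1.2e-05). A dimmer probe set of Cyp51 gave -0.94 (adjusted p = 3.6e-04) and -0.98 (adjusted p = 7.0e-05), by which TMS did not lie between the others, and the dimmest gave -0.08 and -0.03 and was not called. Msmo1 had log2 intensities of 8.66, 9.01 and 8.82 in TMS, 9.45, 9.55 and 9.70 in MMS and 8.71, 8.67 and 8.75 in diffMMS. TMS and diffMMS overlapped below MMS, with log2 fold changes of -0.74 (SE 0.0965, adjusted p = 4.6e-04 from limma) and -0.86 (adjusted p = 3.7e-05).

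The later sterol enzymes moved less. Sc5d, the desaturase that acts on lathosterol, had log2 intensities of 6.89, 6.94 and 6.67 in TMS, 6.97, 6.84 and 7.05 in MMS and 7.28, 7.23 and 7.22 in diffMMS, so that diffMMS lay above both other cultures, which overlapped. By the probe sets taken it was the only sterol enzyme called higher in diffMMS than in MMS (log2 fold change 0.29, SE 0.0879, adjusted p = 0.0251 from limma). This call was lost without 858A, 859A, 861A, 862A or 863A, with log2 fold changes of 0.23 to 0.30 and an adjusted p of up to 0.112, and with arrays centred on the median (0.24, adjusted p = 0.0550). Its other probe set gave 0.10 (adjusted p = 0.561), and its groups overlapped. Ebp, the sterol isomerase before it, had 0.20 (adjusted p = 0.0964) in diffMMS and -0.08 in TMS. Tm7sf2, Nsdhl, Hsd17b7 and Dhcr7 were not called in any comparison, and their log2 fold changes against MMS ran from -0.21 to -0.03 in TMS and from -0.15 to 0.02 in diffMMS.

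**Figure D3:**
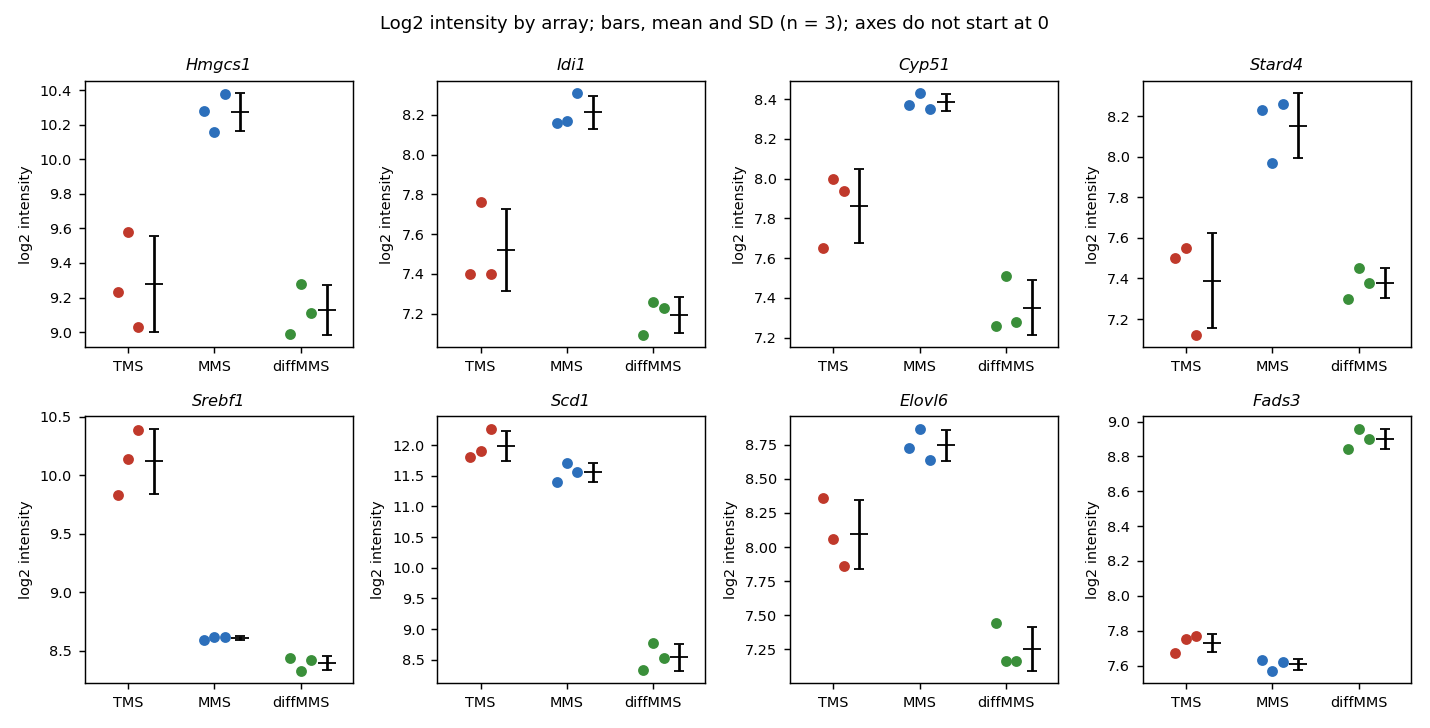
Log2 intensity by culture for Hmgcs1, Idi1, Cyp51, Stard4, Srebf1, Scd1, Elovl6 and Fads3, with points for arrays, a dash at the mean and bars of 1 SD (n = 3); each panel has its own axis, which does not start at 0. MMS is highest for the upper 4 genes, TMS is highest for Srebf1, diffMMS is lowest for Scd1 and Elovl6, and diffMMS is highest for Fads3.

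Among the regulators the largest difference was that of Srebf1, which encodes the SREBP forms that act chiefly on fatty acid genes. Srebf1 had log2 intensities of 9.83, 10.14 and 10.39 in TMS, 8.59, 8.62 and 8.62 in MMS and 8.44, 8.33 and 8.42 in diffMMS. Every TMS array lay above every other array. It was 2.85-fold higher in TMS than in MMS (log2 fold change 1.51, SE 0.116, adjusted p = 7.4e-06 from limma), and -0.21 in diffMMS against MMS was not called (adjusted p = 0.181). The probe set does not say which of the SREBP forms of the gene was measured.

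Srebf2, which encodes the SREBP that acts chiefly on sterol genes, had log2 intensities of 8.91, 9.02 and 8.67 in TMS, 8.97, 8.84 and 8.66 in MMS and 8.99, 9.13 and 9.05 in diffMMS. It was not called by this probe set in any comparison, with log2 fold changes against MMS of 0.04 in TMS and 0.24 in diffMMS (adjusted p = 0.103 from limma). Its other probe set fell in diffMMS by 0.33 (adjusted p = 0.0292), so that no direction can be given for Srebf2 in diffMMS.

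Scap, the escort of the SREBPs, had log2 intensities of 9.33, 9.55 and 9.64 in TMS, 9.46, 9.37 and 9.40 in MMS and 9.03, 9.05 and 9.05 in diffMMS. It was lower in diffMMS than in MMS (log2 fold change -0.37, SE 0.0835, adjusted p = 0.00552 from limma), and TMS and MMS overlapped (0.10, adjusted p = 0.505). Insig2, a protein that retains Scap, had 6.79, 6.70 and 7.11 in TMS, 6.42, 6.79 and 6.55 in MMS and 6.87, 7.18 and 7.07 in diffMMS. It was higher in diffMMS than in MMS (0.45, SE 0.126, adjusted p = 0.0170), a call lost without 858A, 860A, 862A or 863A, with log2 fold changes of 0.37 to 0.44 and an adjusted p of up to 0.0702. A dim probe set of Insig2 gave 0.08 (adjusted p = 0.409).

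Stard4, which carries cholesterol between membranes, was listed with the regulators. It had log2 intensities of 7.50, 7.55 and 7.12 in TMS, 8.23, 7.97 and 8.26 in MMS and 7.30, 7.45 and 7.38 in diffMMS. As with Hmgcs1, TMS and diffMMS overlapped below MMS, with log2 fold changes of -0.76 (SE 0.117, adjusted p = 0.00127 from limma) and -0.77 (adjusted p = 3.8e-04). Of the 5 regulators and transporters measured, 1 was higher and 1 lower in TMS than in MMS, and 1 was higher and 2 were lower in diffMMS, beside the shares of all probe sets given for the sterol enzymes.

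The fatty acid arm moved in both directions. Of its 14 genes, 4 were higher and 3 lower in TMS than in MMS, and 3 were higher and 5 lower in diffMMS than in MMS, beside the shares of all probe sets given for the sterol enzymes. Median log2 fold changes were 0.06 and -0.06. Summed intensities, in which Scd1 and Scd2 weigh most, were 8810 to 10581 in TMS, 9297 to 10058 in MMS and 4450 to 5167 in diffMMS.

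The supply of acetyl-CoA and NADPH and the making of palmitate are carried out by Acly, Acss2, Me1, Acaca and Fasn. Me1, the malic enzyme that yields NADPH, had log2 intensities of 8.83, 8.48 and 8.65 in TMS, 7.79, 7.91 and 7.66 in MMS and 8.41, 8.56 and 8.46 in diffMMS. Both other cultures lay above MMS, with log2 fold changes of 0.86 (SE 0.0993, adjusted p = 1.8e-04 from limma) and 0.69 (adjusted p = 2.7e-04). Acaca, the carboxylase that makes malonyl-CoA, had 7.32, 7.17 and 7.10 in TMS, 6.66, 6.48 and 6.64 in MMS and 6.65, 6.74 and 6.73 in diffMMS. It was higher in TMS alone, by 0.60 against MMS (SE 0.0828, adjusted p = 6.5e-04) and by 0.49 against diffMMS (adjusted p = 0.00108), while diffMMS and MMS overlapped.

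Fasn, the synthase that builds palmitate, had log2 intensities of 8.96, 8.88 and 9.01 in TMS, 8.93, 8.95 and 8.99 in MMS and 8.23, 8.31 and 8.29 in diffMMS. The TMS and MMS arrays overlapped (log2 fold change -0.01, SE 0.0691, adjusted p = 0.971 from limma), and diffMMS lay below both, by 0.68 against MMS (adjusted p = 1.6e-05). Acss2, which makes acetyl-CoA from acetate, was higher in diffMMS than in MMS (0.43, adjusted p = 0.00109), while its dim probe set gave 0.08 (adjusted p = 0.393). Acly, which makes acetyl-CoA from citrate, had -0.11 in TMS and -0.19 in diffMMS by its brightest probe set and was not called, whereas another of its 5 probe sets was lower by 0.73 and 0.49 (adjusted p = 9.8e-05 and 4.4e-04 from limma). Thrsp, a protein linked to lipogenesis, was low throughout, at 5.57, 5.37 and 5.5 on average in TMS, MMS and diffMMS. Its call in TMS against MMS (0.20, adjusted p = 0.0486) was lost without any of 8 single arrays, all but 1101A, with 0.16 to 0.23 and an adjusted p of up to 0.199.

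The stearoyl-CoA desaturases place the first double bond. The differences of Scd1 between diffMMS and each of the other cultures were the largest of the whole list. Scd1 had log2 intensities of 11.80, 11.90 and 12.27 in TMS, 11.40, 11.70 and 11.56 in MMS and 8.33, 8.77 and 8.52 in diffMMS. The diffMMS arrays lay far below all others, 8.07-fold below MMS (log2 fold change -3.01, SE 0.136, adjusted p = 1.9e-08 from limma). TMS lay above MMS without overlap, by 0.44, but this was not called (adjusted p = 0.0524), while its dimmer probe set gave 1.05 in the same comparison (adjusted p = 3.5e-04).

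Scd2 had log2 intensities of 10.84, 10.70 and 10.50 in TMS, 11.04, 10.97 and 11.07 in MMS and 9.68, 9.98 and 9.71 in diffMMS by its brightest probe set. It was lower in diffMMS than in MMS by 1.24 on the log2 scale (SE 0.101, adjusted p = 2.6e-06 from limma), while -0.94 (adjusted p = 1.0e-04) and -0.48 (adjusted p = 0.116) were found by its dimmer probe sets. Between TMS and MMS its probe sets disagreed, with -0.34 (adjusted p = 0.0420), 0.28 (adjusted p = 0.149) and 0.94 (adjusted p = 0.0142). With any of 1100A, 1101A, 858A, 859A, 860A or 863A left out, the call of the brightest probe set was lost (-0.38 to -0.25, adjusted p up to 0.129), and no direction can be given for Scd2 between TMS and MMS.

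Elovl6, which lengthens palmitate to stearate, the substrate of these desaturases, had log2 intensities of 8.36, 8.06 and 7.86 in TMS, 8.73, 8.87 and 8.64 in MMS and 7.44, 7.16 and 7.16 in diffMMS. Its groups did not overlap and ran in the order MMS, TMS, diffMMS. Log2 fold changes against MMS were -0.65 in TMS (SE 0.125, adjusted p = 0.00489 from limma) and -1.49 in diffMMS (adjusted p = 3.3e-06), and its other probe set gave -0.61 and -1.55. Elovl1 and Elovl5, elongases of very long and of polyunsaturated chains, had -0.21 and 0.00 in TMS and -0.05 and 0.16 in diffMMS, and neither was called by the probe set taken. Another probe set of Elovl1 was lower, by 0.33 in TMS (adjusted p = 0.0295 from limma) and by 0.39 in diffMMS (adjusted p = 0.00560). The remaining one gave -0.30 (adjusted p = 0.0743) and -0.37 (adjusted p = 0.0161). On the values as deposited the probe set taken for Elovl1 was called lower in both, at -0.36 (adjusted p = 0.00873) and -0.27 (adjusted p = 0.0190).

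Fads1 and Fads2 place double bonds in polyunsaturated fatty acids, and Fads3 is a related member of their family. Fads3 had log2 intensities of 7.67, 7.75 and 7.77 in TMS, 7.63, 7.57 and 7.62 in MMS and 8.84, 8.96 and 8.90 in diffMMS. It was 2.46-fold higher in diffMMS than in MMS (log2 fold change 1.30, SE 0.0696, adjusted p = 8.0e-08 from limma), the largest rise of the list in that comparison, and its other probe set gave 0.58 (adjusted p = 4.2e-04). Fads2 was higher in TMS than in MMS (0.43, adjusted p = 0.00611) and had -0.06 in diffMMS, and the first call was lost with arrays centred on the median (0.27, adjusted p = 0.0564). Its other probe set was not called in TMS (0.13, adjusted p = 0.448) and was lower in diffMMS, at -0.42 (adjusted p = 0.00659). Fads1 was lower in both, by 0.29 in TMS (adjusted p = 0.0201) and 0.43 in diffMMS (adjusted p = 8.8e-04). The TMS call of Fads1 was lost without 1099A, 858A or 859A (-0.29 to -0.25, adjusted p up to 0.0830).

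**Figure D4:**
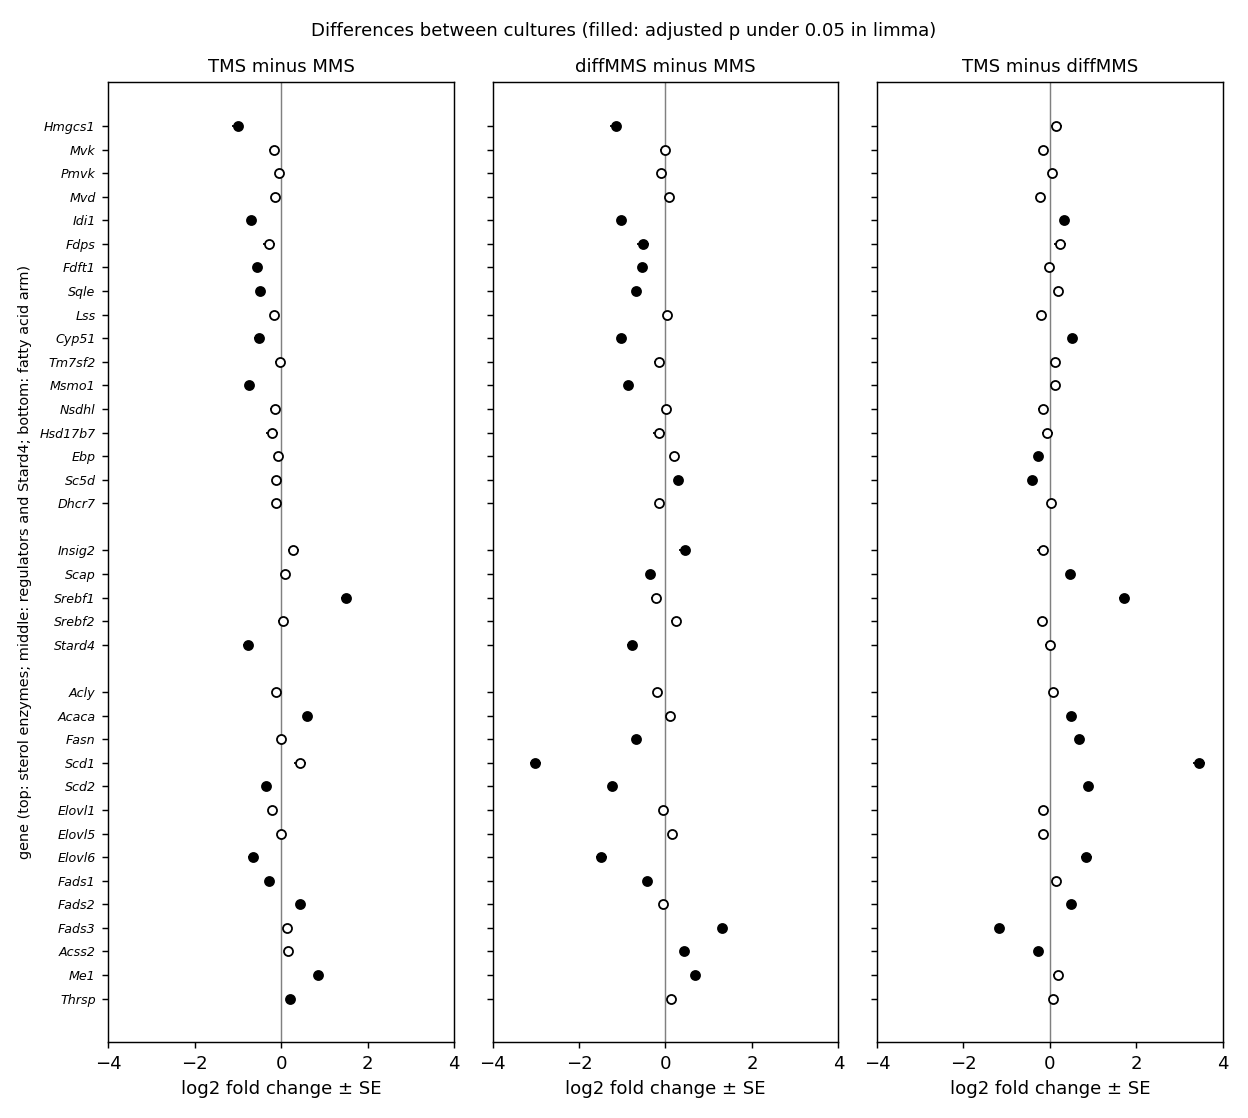
Log2 fold change (horizontal axis, with bars of 1 SE that are mostly hidden by the points) of each measured gene in the 3 comparisons, filled where limma's adjusted p was under 0.05. Filled points of the sterol enzymes lie left of 0 in TMS minus MMS and, but for Sc5d, in diffMMS minus MMS, and those of the fatty acid arm lie on both sides, with Scd1 farthest from 0.

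TMS and diffMMS were compared directly in the same fit. Of the 36 genes 14 were called, where 23.7% of all probe sets were, and 19 had groups that did not overlap, where 37.4% of all probe sets did not. Of the sterol enzymes 2 were higher and 2 lower in TMS, where 12.2% of all probe sets were higher and 11.4% lower, and the median log2 fold change was 0.02 beside -0.02 over all probe sets. Cyp51 was higher in TMS by 0.51 (SE 0.101, adjusted p = 0.00304 from limma), but not by its dimmer probe sets (0.04 and -0.04, adjusted p = 0.846 and 0.578), and Idi1 by 0.33 (adjusted p = 0.0393), while Sc5d was lower by 0.41 (adjusted p = 0.00509) and Ebp by 0.28 (adjusted p = 0.0349). The calls of Idi1 and Ebp were each lost without 1100A, 858A, 859A, 861A or 862A, and that of Idi1 also without 860A or 863A or by its other probe set (0.18, adjusted p = 0.284), with log2 fold changes of 0.21 to 0.36 for Idi1 and -0.28 to -0.20 for Ebp. Ebp was not called either on the values as deposited (-0.20, adjusted p = 0.130) or with arrays centred on the median (-0.20, adjusted p = 0.161). Fdft1 was not called by the probe set taken (-0.01). Further probe sets of Fdft1 gave -0.56 (adjusted p = 2.6e-04 from limma), -0.48 (adjusted p = 0.0101) and 0.15 (adjusted p = 0.408). The other probe set of Mvd was lower in TMS, at -0.34 (adjusted p = 0.00490). For Hmgcs1, Msmo1 and Stard4 the log2 fold changes were 0.15, 0.12 and 0.01, with adjusted p of 0.423, 0.408 and 0.963, which does not show that their levels were alike.

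The fatty acid arm parted TMS from diffMMS more than the sterol enzymes did by count. Of its 14 genes, 6 were higher and 2 lower in TMS, where 12.2% of all probe sets were higher and 11.4% lower. Their median log2 fold change was 0.16. The difference between the arms was not tested. Scd1 was 10.9-fold higher in TMS (log2 fold change 3.45, SE 0.136, adjusted p = 6.3e-09 from limma), and its other probe set gave the same value. Scd2 was higher by 0.89 (adjusted p = 4.8e-05), Elovl6 by 0.84 (adjusted p = 4.1e-04), Fasn by 0.68 (adjusted p = 2.1e-05) and Fads2 by 0.49 (adjusted p = 0.00140). In this direction all 3 probe sets of Scd2 were called. Fads3 was lower in TMS by 1.17 (adjusted p = 1.8e-07) and Acss2 by 0.28 (adjusted p = 0.0188), a call lost without 863A (-0.23, adjusted p = 0.0751) and by its other probe set (-0.13, adjusted p = 0.200). Of the regulators, Srebf1 was higher by 1.72 (SE 0.116, adjusted p = 5.1e-07) and Scap by 0.46 (adjusted p = 0.00161), and none was lower.

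Genes that take up, move and export sterols were read from a list beside the synthesis genes, of which 13 of 15 were measured. In TMS against MMS, where 14.3% of all probe sets were called, 1 was lower and none higher, namely Npc1, which releases cholesterol from lysosomes (log2 fold change -0.30, adjusted p = 0.0404 from limma). In diffMMS against MMS 2 were higher and 4 lower, where 33.1% of all probe sets were called. Among these Apoe, a carrier of lipid outside the cell, rose by 0.71 (adjusted p = 0.010) and Abcg1, which exports cholesterol, fell by 0.73 (adjusted p = 6.4e-04). Abcg1 had log2 intensities of 8.35, 8.24 and 8.24 in TMS, 8.15, 8.21 and 8.21 in MMS and 7.77, 7.41 and 7.20 in diffMMS. In TMS against diffMMS 4 were higher and 1 lower, where 12.2% and 11.4% of all probe sets were, with Abcg1 at 0.82 and Apoe at -0.66.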

How the data were processed

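RNA of 9 cultures (3 TMS, 3 MMS, 3 diffMMS) was measured on MOE430A arrays, and samples were grouped by their labels. The authors deposited 1 table of probe set intensity values on a linear scale, with 22690 rows; the summary method and scaling between arrays are not given in the sources used here, although the quartiles of the arrays lie close together. Here 8.67 (10% of the median) was added, log2 taken and the arrays quantile normalized, because quartiles differed by up to 0.134 (limit 0.1). Quantile normalization removes any shift that touches most genes. Group means were fitted to 22626 probe sets, without 64 controls, with limma 3.58.1 in R 4.3.3 (lmFit, eBayes with intensity trend, 6 residual degrees of freedom). Two-sided p values were adjusted by Benjamini-Hochberg over each comparison, and 0.05 was the threshold. Precision is limited by 3 arrays per group.

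By the platform's annotation 20380 probe sets carry 1 symbol, 691 several and 1555 none. By Entrez identifier all 36 measured members were found in RefSeq (GRCm38.p6) under an equal symbol. Promoter sequences are those of RefSeq, and genes without an entry were not searched. Of the members, 24 have several probe sets.

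The members and lists were chosen with earlier results of these data known. Array values are given for the 3 members with the largest called difference, per list and comparison, among those whose groups do not overlap. They are also given for Srebf1 and Srebf2, and for members with probe sets called in opposite directions. Sqle, Fasn and Abcg1 were added after their values were seen. Array values of Lpl and Cpt2, which belong to the other lists, are given outside this rule. Of the other lists, the largest called rises and falls were to be named, and those of the cell type markers are given in part. Alternatives were other scalings, pseudocounts, variance models, array weights, a filter on dim probe sets, only the groups compared, another probe set per gene, a stricter threshold and each array left out. The fit was tested on simulated data. Python 3.11.15 with matplotlib 3.10.9 drew the figures.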

Additional observations from a re-analysis of the deposited data

How the results depend on the processing

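Of the 48 called differences of members, 36 kept direction and call in all 11 other settings and with each of the 9 arrays left out, and 11 were lost in at least 1. Among all member differences, called or not, 3 were reversed, each with the probe set of largest F. These were Fdft1 in diffMMS against MMS (0.51), Srebf2 in diffMMS against MMS (-0.33) and Acly in TMS against diffMMS (-0.24). Only that of Fdft1 was called in the main fit. At an adjusted p under 0.01 from limma, 1549, 4456 and 3166 probe sets were called in TMS against MMS, diffMMS against MMS and TMS against diffMMS, against 3231, 7489 and 5353 at 0.05, with 4 genes of the fatty acid arm in the first comparison and 2 sterol enzymes in the last. With only TMS and diffMMS in the fit, 2 sterol enzymes were called. Array weights gave 5860 probe sets in TMS against MMS. The causes were not tested.

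With arrays left out, the probe sets called in TMS against MMS ran from 1863 (without 859A; 1907 without 860A) to 4088, those in diffMMS against MMS from 5218 to 8347 and those in TMS against diffMMS from 4313 to 5626. The fatty acid genes called in TMS against MMS ran from 4 (without 858A or 859A) to 7, and the sterol enzymes in TMS against diffMMS from 2 (without 858A, 859A, 861A or 862A) to 5. Sterol enzymes called stayed at 6 in TMS against MMS and at 7 to 8 in diffMMS against MMS. Centring arrays on the median, in place of quantile normalization, changed the share of calls that were higher from 45.5% to 34.1% in TMS against MMS and from 48.6% to 38.3% in diffMMS against MMS. Sterol enzymes called lower were then 8 in each, with none higher. No paired analysis was possible because the labels give array codes and no replicate numbers shared between groups.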

Other observations

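Lipid genes beyond the synthesis arms also differed between the cultures. Of 13 measured genes of triglyceride making, storage and release, 3 were higher and 1 lower in TMS than in MMS, where 14.3% of all probe sets were called, and 5 were higher and 5 lower in diffMMS than in MMS, where 33.1% were. Lpl, the lipase that frees fatty acids from circulating triglyceride, had log2 intensities of 8.73, 8.65 and 8.83 in TMS, 9.32, 9.57 and 9.72 in MMS and 12.17, 11.98 and 11.98 in diffMMS. No groups overlapped, and diffMMS stood 5.68-fold above MMS (log2 fold change 2.51, SE 0.102, adjusted p = 9.0e-09 from limma) while TMS stood below MMS (-0.80, adjusted p = 3.9e-04). Mgll, which splits monoglyceride, went the other way, with 0.76 in TMS (adjusted p = 0.0145) and -1.58 in diffMMS against MMS (adjusted p = 4.0e-05). Acsl4, which activates long polyunsaturated fatty acids, had 0.86 (adjusted p = 0.00320) and -0.94 (adjusted p = 6.7e-04). Plin2, a coat protein of lipid droplets, fell by 1.18 in diffMMS (adjusted p = 9.1e-04) and overlapped between TMS and MMS.

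Of 13 measured genes of fatty acid oxidation, 2 were higher and 3 lower in TMS than in MMS, where 14.3% of all probe sets were called, and 3 were higher and 1 lower in diffMMS, where 33.1% were. Cpt2, a carnitine palmitoyltransferase of the mitochondrial inner membrane, had log2 intensities of 7.39, 7.38 and 7.38 in TMS, 7.63, 7.68 and 7.56 in MMS and 8.62, 8.56 and 8.67 in diffMMS. It was 1.99-fold higher in diffMMS than in MMS (log2 fold change 1.0, SE 0.0689, adjusted p = 6.5e-07 from limma) and lower in TMS than in diffMMS by 1.24 on the log2 scale (adjusted p = 1.0e-07). Acadl, an acyl-CoA dehydrogenase of long chains, was lower than in MMS in both, by 0.54 in TMS (adjusted p = 0.00573) and by 0.58 in diffMMS (adjusted p = 0.00145). These lists share the MMS arrays between comparisons, and the part of cell type makeup in their differences was not tested.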
